A study of Homo sapiens with 3 samples.

Results

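The genes described here are the plasma membrane and lysosomal amino acid transporters of the solute carrier (SLC) families, with their close relatives, in H2030-BrM3 cells depleted of PARP1. Members were all array genes whose platform symbol begins with SLC1A, SLC3A, SLC6A, SLC7A, SLC36A, SLC38A or SLC43A, with 1 SLC7 gene left out. The rule took 62 of the 20044 genes named on the array, represented by 87 probes. Of these, 56 were placed in lists of carriers by role, and 6 other symbols that share a prefix were not. The 6 were SLC38A12, an SLC38 symbol outside the role lists, the antisense RNAs SLC38A2-AS1 and SLC38A4-AS1, the pseudogenes SLC6A10P and SLC7A5P2, and SLC7A6OS. The rule reads symbols and no expression value, but it was set with earlier results of these data known.

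H2030-BrM3 is an established human lung adenocarcinoma line, derived from H2030 by selection for growth in the brain. The 3 groups of RNA came from cells carrying PARP1 shRNA-1 (hairpin 1, 1 array), PARP1 shRNA-2 (hairpin 2, 1 array) or a non-targeting shRNA (control, 1 array). All were grown in RPMI 1640 with 10% fetal bovine serum, a medium that supplies amino acids, for 1 day per the labels, and read on Illumina HumanHT-12 V4 BeadChips. The series asks which transcripts depend on PARP1, a nuclear enzyme that senses DNA breaks.

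Amino acids enter cells through carriers that differ in substrate and driving force. Sodium-coupled carriers such as those of the SLC38 family accumulate glutamine and alanine, and exchangers such as the heterodimer of SLC7A5 and SLC3A2 trade intracellular glutamine for leucine and other large neutral amino acids. Several carrier genes are known targets of ATF4, the transcription factor that is translated when amino acids run short, and lysosomal members report amino acid supply to the kinase complex mTORC1.

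The arrays gave a median probe intensity of 152.2 for hairpin 1, 161.7 for hairpin 2 and 153.6 for the control, with 34.6%, 36.8% and 35.6% of 47309 probes above background in the same order. A probe was called above background at a detection p under 0.01. PARP1 intensity before normalization was 1312 with hairpin 1 and 765.8 with hairpin 2, against 4365 in the control. After normalization 28.3% of the control level was left with hairpin 1 and 12.9% with hairpin 2 (limma adjusted p = 0.713). Of 10 lung epithelial markers, KRT8, KRT18 and EPCAM were above background on all arrays, and NKX2-1, NAPSA, SFTPB, SFTPC, KRT7, KRT19 and CDH1 were not above background on any. Outside the lung list 1 of 6 neuron and glia markers (MBP) and 1 of 4 leukocyte markers (CD68) were above background. The same held for 2 of 4 fibroblast markers (COL1A1 and COL3A1) and 0 of 3 endothelial markers. Each p-value rests on the gap between the 2 hairpin arrays and on variance borrowed from all genes. The spread of the control was not measured. The labels do not name separate cultures, so the gap may be technical, and it also holds any difference between the hairpins. With 1 cell line, fewer expressing cells and less RNA per cell cannot be told apart.

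Of the 62 genes, 30 had a probe above background on at least 1 array and were tested, 25 of them carriers. Over the whole array 10692 of 20044 named genes were tested. The number of members above background was 24 with hairpin 1, 26 with hairpin 2 and 29 in the control. Of the 30 tested, 23 were above background on all 3 arrays, against 90.7% of all genes tested. Tested members not above background on every array were close to the detection threshold, so no loss of carriers is drawn from these counts. Of the SLC38 genes placed as sodium-coupled carriers, 7 of 11 were tested. None of the 3 monoamine carriers (SLC6A2, SLC6A3 and SLC6A4, which clear noradrenaline, dopamine and serotonin at synapses) was above background. The 32 genes not above background on any array also held SLC1A1, SLC1A2, SLC1A6, SLC1A7, SLC3A1, SLC7A3, SLC7A4, SLC7A8, SLC7A9, SLC7A10, SLC7A13, SLC7A14, SLC36A2, SLC36A3, SLC38A3, SLC38A4, SLC38A8, SLC38A11, SLC38A12 and SLC43A3. From the SLC6 family they held SLC6A5, SLC6A7, SLC6A11, SLC6A12, SLC6A13, SLC6A14, SLC6A18, SLC6A19 and SLC6A20. For these no ratio is given.

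The stretches upstream of 6 members are printed as a selection and not by a rule. SLC38A2 and SLC43A2 were measured above the control with both hairpins, as were other members that are not printed. SLC7A5, SLC43A1, SLC38A5 and SLC1A3 have a match to 1 of 2 motifs tied to amino acid carriers in the literature. SLC6A16, SLC38A4-AS1 and SLC1A7 also have a match and are not printed. Each is the 250 bases before the gene's start, 5′ to 3′ on the gene's strand, from RefSeq on GRCh38.p14, in lower case with motif matches in capitals. The motifs were TGATGNAA, the core of the C/EBP-ATF element bound by ATF4, and CACGTG, the E-box bound by MYC and by TFEB and reading the same on both strands. Both were searched on both strands, and no member's stretch held both. The regions are chr12:46372774-46373023 (minus strand) for SLC38A2, chr17:1605035-1605284 (minus) for SLC43A2, chr16:87869508-87869757 (minus) for SLC7A5, chr11:57515703-57515952 (minus) for SLC43A1, chrX:48470261-48470510 (minus) for SLC38A5 and chr5:36596338-36596587 (plus) for SLC1A3.
SLC38A2: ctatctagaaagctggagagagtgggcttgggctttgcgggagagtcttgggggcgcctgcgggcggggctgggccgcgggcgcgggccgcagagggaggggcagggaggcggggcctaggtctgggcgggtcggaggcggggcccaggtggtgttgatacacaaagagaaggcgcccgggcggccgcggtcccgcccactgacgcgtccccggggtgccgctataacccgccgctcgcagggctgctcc
SLC43A2: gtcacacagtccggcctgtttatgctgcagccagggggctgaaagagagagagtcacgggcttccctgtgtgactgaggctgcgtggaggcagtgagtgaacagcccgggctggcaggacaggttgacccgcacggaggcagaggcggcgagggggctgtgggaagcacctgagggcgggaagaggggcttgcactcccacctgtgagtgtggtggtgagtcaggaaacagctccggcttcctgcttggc
SLC7A5: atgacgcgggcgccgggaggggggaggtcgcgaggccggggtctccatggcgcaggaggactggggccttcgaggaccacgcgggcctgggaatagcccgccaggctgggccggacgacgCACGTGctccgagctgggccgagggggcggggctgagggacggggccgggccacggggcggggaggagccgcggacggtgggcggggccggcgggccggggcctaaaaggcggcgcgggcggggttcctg
SLC43A1: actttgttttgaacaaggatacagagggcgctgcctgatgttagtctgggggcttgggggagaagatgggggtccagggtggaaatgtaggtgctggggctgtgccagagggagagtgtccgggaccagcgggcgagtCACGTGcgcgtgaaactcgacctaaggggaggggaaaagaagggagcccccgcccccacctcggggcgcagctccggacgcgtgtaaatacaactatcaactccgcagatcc
SLC38A5: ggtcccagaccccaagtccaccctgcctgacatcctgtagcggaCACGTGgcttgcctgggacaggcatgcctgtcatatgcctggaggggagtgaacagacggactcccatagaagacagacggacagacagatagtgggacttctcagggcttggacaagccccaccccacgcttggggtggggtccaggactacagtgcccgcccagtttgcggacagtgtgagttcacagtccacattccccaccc
SLC1A3: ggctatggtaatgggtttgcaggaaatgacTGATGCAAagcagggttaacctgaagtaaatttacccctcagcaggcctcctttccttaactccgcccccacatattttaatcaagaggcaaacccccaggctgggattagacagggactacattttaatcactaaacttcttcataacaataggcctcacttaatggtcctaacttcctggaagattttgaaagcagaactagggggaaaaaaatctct

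The RefSeq table held upstream stretches for 47 of the 62 genes, 25 of them tested. TGATGNAA was in 1 of these 25, SLC1A3, with its first base at position −220 from the start, and in 3.19% of 27305 promoters of the same length. CACGTG was in 5 of the 25 (SLC7A5, SLC43A1, SLC38A5, SLC6A16 and SLC38A4-AS1) and in 6.49% of all promoters. The first base of the E-box was at −130 in SLC7A5, −112 in SLC43A1 and −206 in SLC38A5. The 25 tested stretches had a median GC content of 65.6%, against 58.0% over all promoters. These matches are descriptions of letters and not of binding. The start of SLC38A2 lies 10 bases from that of SLC38A2-AS1, which is transcribed the other way, so the printed stretch also covers the start of the antisense gene.

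No member passed the test of PARP1 hairpins against the control. In limma with Benjamini-Hochberg adjustment over all 10692 genes tested, adjusted p-values of the 30 members lay between 0.994 and 0.999, and 0.0% of all genes were called. At an unadjusted p under 0.05 limma held 1 member, SLC38A2, and 3.51% of all genes. None of the 30 differed from the control by 1.5-fold or more on both hairpin arrays with the same sign, a size reached by 0.973% of all genes (0.365% higher and 0.608% lower). The median log2 change of the tested members was 0.06, and that of all genes 0.00.

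The control array lay outside both hairpin arrays for 23 of the 30 members, against 65.2% of all genes, and both ratios of a gene share that 1 control. Both hairpins were higher in 13 members, against 33.8% of all genes, and both were lower in 10, against 31.4% of all genes. Among the 23 members whose probe was above background on all arrays, 12 were higher with both, 5 were lower and 6 differed in direction, and mean log2 changes ran from −0.15 to 0.33. Among the 7 whose probe was above background on only 1 or 2 arrays, 5 were lower and mean changes reached −0.61. A dim gene seen only in the control passed the filter through its high control value and had to be lower with the hairpins. Of the dim lower members this holds for SLC38A5, SLC43A1 and SLC6A15, while SLC1A4 and SLC6A6 were not above background with hairpin 1. The shares of all genes include dim probes, and none was computed for genes above background on all arrays. These counts therefore give no support to a direction.

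**Figure D1:**
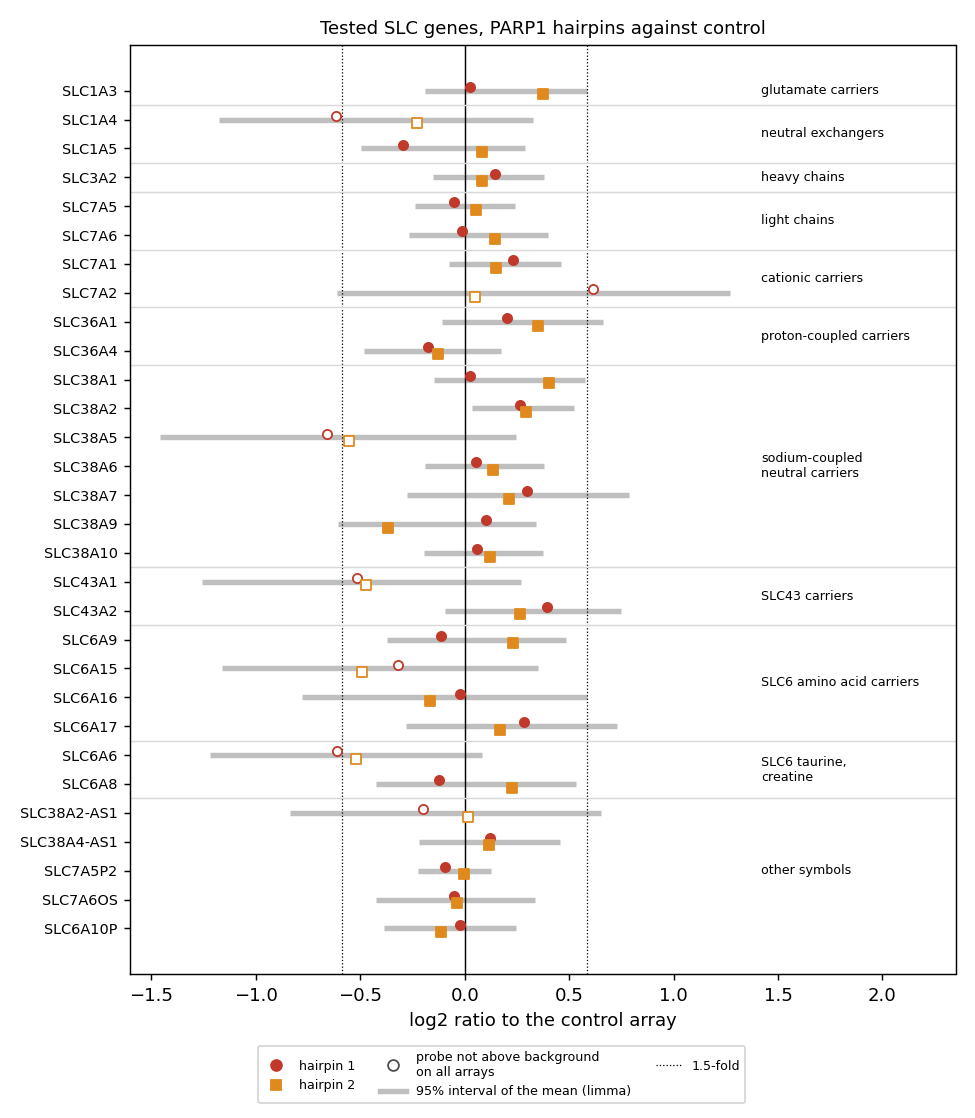
Log2 ratios to the control array of the 30 tested genes, with hairpin 1 as circles, hairpin 2 as squares, open symbols where the probe was not above background on all arrays, and grey bars for limma's 95% interval of the mean. The bar of SLC38A2 (0.04 to 0.53) is the only one that does not cross 0, and the widest bars belong to open symbols.

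The bars show the precision of the fit for 1 probe per gene. They rest on the gap between the hairpins and on borrowed variance, and not on a measured spread of the control. The moderated standard error (SE) of a member's log2 change ran from 0.08 to 0.41, with a median of 0.17. For 16 members the 95% interval lay wholly within 1.5-fold of the control, all of them with a probe above background on all arrays. For the other 14 it reached past 1.5-fold. No share over all genes was computed for these counts, so they describe the width of the intervals and are no result about the carriers.

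**Figure D2:**
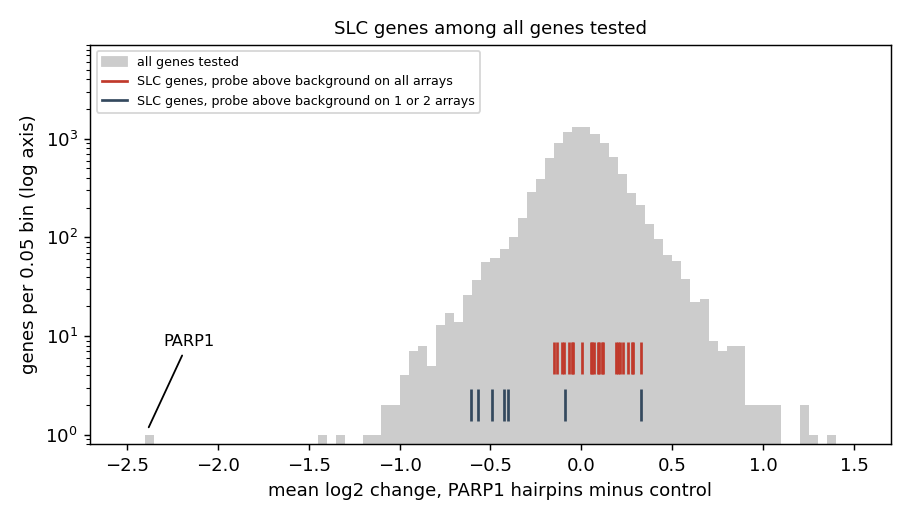
Histogram of the mean log2 change (hairpins minus control) of all 10692 genes on a log count axis, with upper ticks for the 23 members measured on all arrays and lower ticks for the 7 measured on 1 or 2. The members lie between −0.61 and 0.33 and PARP1 stands at −2.39.

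The glutamate and neutral amino acid carriers of the SLC1 family showed 1 of 5 and 2 of 2 genes above background. SLC1A3, a sodium-coupled glutamate and aspartate carrier best known from astrocytes, had a normalized log2 intensity of 8.73 with hairpin 1 and 9.08 with hairpin 2, against 8.71 in the control. Only hairpin 2 stood apart, and the mean log2 change was 0.20 ± 0.17 (SE, n = 2 against 1; limma adjusted p = 0.994). SLC1A5, the main glutamine exchanger of many tumour lines, had 9.33 with hairpin 1 and 9.71 with hairpin 2, against 9.62 in the control. The control lay between the hairpins, and the mean change was −0.10 ± 0.17, with a 95% interval of −0.50 to 0.29. SLC1A4, which carries alanine, serine and cysteine, had 5.45 with hairpin 1, where it was not above background, and 5.84 with hairpin 2, against 6.07 in the control.

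The heterodimeric carriers were close to the control. SLC3A2, the heavy chain (also called CD98) that takes its light chains to the membrane, had a log2 intensity of 10.99 with hairpin 1 and 10.93 with hairpin 2, against 10.85 in the control. Both hairpins were above the control by its brightest probe, with a mean change of 0.11 ± 0.12 (SE). Another SLC3A2 probe, above background on all arrays, gave log2 ratios of 0.07 with hairpin 1 and −0.15 with hairpin 2. Its light chain SLC7A5, the leucine and large neutral amino acid exchanger, had intensities before normalization of 4331 with hairpin 1 and 5234 with hairpin 2, against 4448 in the control. After normalization these were 12.09 with hairpin 1 and 12.20 with hairpin 2, against 12.15 in the control on the log2 scale. The control lay between the hairpins, and the mean change was 0.00 ± 0.10 with a 95% interval of −0.24 to 0.24, the narrowest among the 25 carriers tested. SLC7A6, a light chain that exchanges cationic for neutral amino acids, had log2 ratios of −0.01 with hairpin 1 and 0.14 with hairpin 2, and a further bright probe gave −0.03 and 0.20.

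Of the cationic carriers, SLC7A1 and SLC7A2 were tested. SLC7A1, the widely expressed arginine and lysine carrier, had intensities before normalization of 2064 with hairpin 1 and 2245 with hairpin 2, against 1777 in the control. Normalized log2 values were 11.00 with hairpin 1 and 10.92 with hairpin 2, against 10.76 in the control. Both hairpins were above the control, with a mean change of 0.19 ± 0.12 (SE). The 95% interval of −0.08 to 0.46 also held values below the control. SLC7A2, an inducible arginine carrier, was above background with hairpin 1 only. Its log2 values were 5.75 with hairpin 1 and 5.18 with hairpin 2, against 5.14 in the control, so the ratio rests on values not above background.

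The sodium-coupled SLC38 carriers held the member with the smallest p-value. SLC38A2, a glutamine and alanine carrier known to be induced when amino acids are withdrawn, had intensities before normalization of 3171 with hairpin 1 and 3666 with hairpin 2, against 2668 in the control. Its normalized log2 intensity was 11.64 with hairpin 1 and 11.67 with hairpin 2, against 11.37 in the control. The hairpins were close to each other and both above the control, at 120.3% of its level with hairpin 1 and 122.7% with hairpin 2. The mean log2 change was 0.28 ± 0.11 (SE, n = 2 against 1). In limma its p was 0.0287 before adjustment and 0.994 after it. The antisense RNA SLC38A2-AS1, which starts beside it, had log2 ratios of −0.20 with hairpin 1, where it was not above background, and 0.01 with hairpin 2.

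The other SLC38 genes tested had larger p-values in limma. SLC38A7, a lysosomal glutamine exporter, had log2 values of 6.59 with hairpin 1 and 6.50 with hairpin 2, against 6.29 in the control. Its mean log2 change was 0.26 ± 0.23 (SE), with a wider SE than that of SLC38A2. The SLC38A7 probe was dim, with intensities before normalization of 216.7 with hairpin 1 and 232.5 with hairpin 2, against 201.2 in the control. Without background correction its mean change was 0.10, against 0.27 for SLC38A2. SLC38A6 had log2 ratios of 0.05 with hairpin 1 and 0.14 with hairpin 2, and SLC38A10 had 0.06 and 0.12 in the same order. A second bright probe of SLC38A10 gave 0.26 with hairpin 1 and 0.17 with hairpin 2. These 3 genes were thus above the control with both hairpins by amounts that did not pass the test. SLC38A1, a glutamine carrier whose gene neighbours SLC38A2 on chromosome 12, had 11.10 with hairpin 1 and 11.48 with hairpin 2, against 11.07 in the control. A further SLC38A1 probe, above background on all arrays, went the other way, with log2 ratios of −0.21 with hairpin 1 and −0.04 with hairpin 2. SLC38A9, the lysosomal arginine sensor of the mTORC1 pathway, had 8.08 with hairpin 1 and 7.61 with hairpin 2, against 7.98 in the control, so the control lay between the hairpins. SLC38A5, a glutamine, histidine and glycine carrier, was not above background with either hairpin (5.13 and 5.23) and was above background in the control (5.78), the array through which it entered, so no size or direction is drawn from it.

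**Figure D3:**
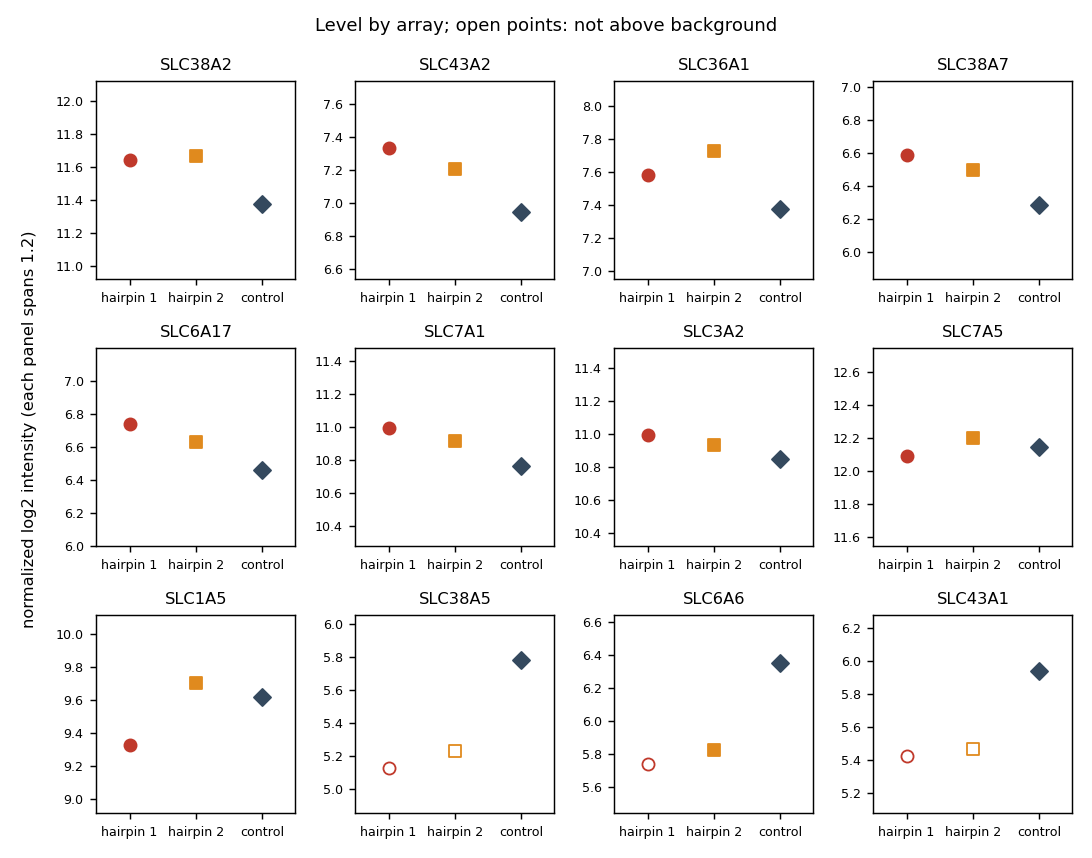
Normalized log2 intensity of 12 members by array, with hairpin 1, hairpin 2 and control from left to right, panels of equal height and open points where the probe was not above background. SLC38A2, SLC43A2, SLC36A1, SLC38A7, SLC6A17, SLC7A1 and SLC3A2 lie above the control on both hairpin arrays, while SLC7A5 and SLC1A5 lie on either side of it. SLC38A5, SLC6A6 and SLC43A1 are drawn below the control, with an open point for hairpin 1 or for both hairpins.

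Of the proton-coupled carriers 2 of 4 genes were tested, and of the SLC43 carriers 2 of 3. SLC36A1, a proton-coupled carrier of small amino acids at the lysosome and the cell surface, had 7.58 with hairpin 1 and 7.73 with hairpin 2, against 7.38 in the control, a mean change of 0.28 ± 0.17 (SE). SLC36A4 had 8.15 with hairpin 1 and 8.20 with hairpin 2, against 8.33 in the control. A dimmer probe of SLC36A4 gave log2 ratios of −0.16 with hairpin 1, where it was not above background, and 0.20 with hairpin 2. SLC43A2, a facilitative carrier of leucine, phenylalanine and methionine, had 7.34 with hairpin 1 and 7.21 with hairpin 2, against 6.94 in the control. Both hairpins were above the control, and its mean log2 change was 0.33 ± 0.18 (SE; 95% interval −0.09 to 0.75). Over the settings tried with both hairpins it lay between 0.17 and 0.41, against 0.27 to 0.32 for SLC38A2. SLC43A1, a related carrier of branched-chain amino acids, had 5.42 with hairpin 1 and 5.46 with hairpin 2, against 5.94 in the control. It was above background in the control only, so its direction was fixed by the filter, and its size with the hairpins was not measured. Neither SLC43 gene passed the test (limma adjusted p = 0.994 for both).

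Of the SLC6 family, 4 of 10 amino acid carriers and 2 of 5 carriers of GABA, taurine, betaine or creatine were tested. Over the settings with both hairpins the mean changes of SLC36A1, SLC38A7 and SLC6A17 started at 0.15, 0.10 and 0.10 and reached 0.36, 0.31 and 0.29. SLC6A17, a vesicular carrier of neutral amino acids known from neurons, had 6.74 with hairpin 1 and 6.63 with hairpin 2, against 6.46 in the control. Its probe was dim, and without background correction its mean change was 0.10. SLC6A9, the glycine carrier GlyT1, had log2 ratios of −0.11 with hairpin 1 and 0.23 with hairpin 2. SLC6A8, the creatine carrier, had −0.12 with hairpin 1 and 0.23 with hairpin 2. These last 2 genes had the control between the hairpins. SLC6A16, an orphan carrier, had −0.02 with hairpin 1 and −0.17 with hairpin 2. SLC6A15, a branched-chain amino acid and proline carrier, had 5.61 with hairpin 1 and 5.44 with hairpin 2, neither above background, against 5.93 in the control. It too entered through the control array alone.

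SLC6A6, the taurine carrier, had intensities before normalization of 176.3 with hairpin 1 and 194.5 with hairpin 2, against 204.1 in the control. Its normalized log2 values were 5.74 with hairpin 1, where it was not above background, and 5.83 with hairpin 2, against 6.35 in the control. The value with hairpin 2 was below the control, and with hairpin 1 no level was measured. The fitted mean change of −0.57 ± 0.28 (SE; 95% interval −1.22 to 0.08) includes hairpin 1, so it is not a measured fold. SLC38A5, SLC6A6, SLC43A1, SLC1A4 and SLC6A15 had the 5 lowest fitted values, with mean log2 changes of −0.61 to −0.41, and all were close to the detection threshold. Without background correction their changes lay between −0.19 and −0.12.

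With 1 hairpin at a time, the fitted ratio of 4 members was 1.5-fold or more with hairpin 1 and that of 0 with hairpin 2, against 3.13% and 3.57% of all genes. The 4 were SLC38A5, SLC1A4 and SLC6A6, which were lower, and SLC7A2, which was higher. Each ratio sets a measured value against one not above background, in hairpin 1 for the first 3 and in the control for SLC7A2, so its size is not a measured fold.

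Of the other symbols above background, SLC7A6OS had log2 ratios of −0.05 with hairpin 1 and −0.04 with hairpin 2, SLC6A10P had −0.02 and −0.11, and SLC7A5P2 had −0.10 and −0.00 in the same order.

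The probes of a gene did not always move alike. Of the 30 tested genes, 6 had more than 1 probe above background, and the brightest was used. For SLC38A10 and SLC7A6 the probes had the same sign with each hairpin. For SLC3A2, SLC38A1 and SLC36A4 they differed in sign with at least 1 hairpin. SLC38A4-AS1 had log2 ratios of 0.12 with both hairpins by its brightest probe, and 0.28 with hairpin 1 and 0.83 with hairpin 2 by a probe above background with hairpin 2 only. Probes of one gene can read different transcript variants, and their part in these differences was not tested.

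**Figure D4:**
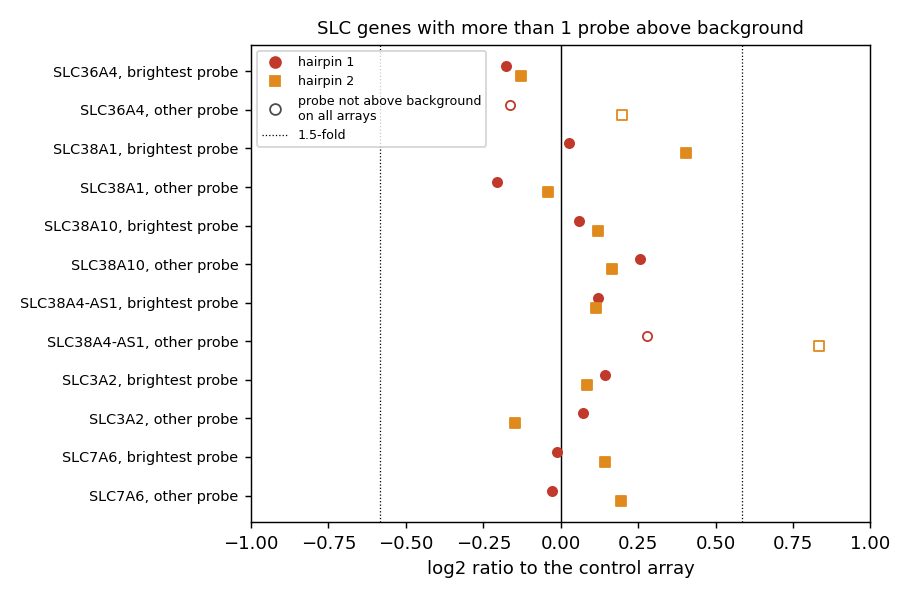
Log2 ratios to the control of each probe for the 6 members with more than 1 probe above background, hairpin 1 as circles, hairpin 2 as squares and open symbols where the probe was not above background on all arrays. The 2 probes of SLC38A1 lie on opposite sides of 0, at 0.40 and −0.04 with hairpin 2.

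Hairpin 2 left less PARP1 transcript than hairpin 1, and the members were compared between the hairpins without a test, since neither has a replicate. Hairpin 2 was higher than hairpin 1 in 19 members and lower in 11, against 49.5% higher among all genes. No member was at least 1.5-fold apart, a size reached by 3.54% of all genes. Among the 23 members above background on all arrays, SLC1A5 and SLC38A1 lay furthest toward hairpin 2, both at 0.38 on the log2 scale (hairpin 2 minus hairpin 1), and SLC38A9 lay furthest toward hairpin 1, at −0.47. SLC1A4, SLC7A2 and SLC6A15 had fitted gaps of 0.39, −0.57 and −0.17, but each was not above background on at least 1 hairpin array, so they are not ranked. SLC38A2, at 0.03, was among the members with the smallest gap between the hairpins.

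Genes that respond to amino acid shortage or sense amino acid supply were set beside the carriers. In the list of the ATF4 amino acid response 12 of 14 genes were tested, of which 8 were higher with both hairpins and 1 was lower, against 33.8% and 31.4% of all genes, with a median log2 change of 0.07, and none passed the limma test. CEBPG, a dimer partner of ATF4, had 10.30 with hairpin 1 and 10.45 with hairpin 2, against 9.83 in the control. It was the highest of the list (mean 0.55 ± 0.13, SE), and its limma p was 0.00257 before adjustment and 0.994 after it. ATF3, a stress-induced transcription factor, had log2 ratios of 0.25 with hairpin 1 and 0.23 with hairpin 2, and TRIB3, a pseudokinase induced by ATF4, had 0.33 and 0.19. EIF4EBP1, a repressor of translation, had −0.29 with hairpin 1 and −0.56 with hairpin 2. ATF4 itself, named outside the naming rule, had 0.05 with hairpin 1 and 0.04 with hairpin 2.

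Of the genes of lysosomal amino acid sensing 21 were on the array and 18 were tested, of which 4 were higher with both hairpins and 7 lower, against 33.8% and 31.4% of all genes, with a median log2 change of −0.02. None passed the limma test. DEPDC5, a subunit of the GATOR1 complex that restrains mTORC1, had log2 ratios of −0.44 with hairpin 1 and −0.39 with hairpin 2. Its probe was dim, with intensities before normalization of 186.1 with hairpin 1 and 204.9 with hairpin 2, against 209.2 in the control. The SE of its mean change was 0.26. SESN1, a sestrin, had 0.38 with hairpin 1 and 0.31 with hairpin 2. The mTOR subunit MLST8 had −0.23 with hairpin 1 and −0.42 with hairpin 2, and the Rag GTPase RRAGD had 0.18 and 0.33.

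**Figure D5:**
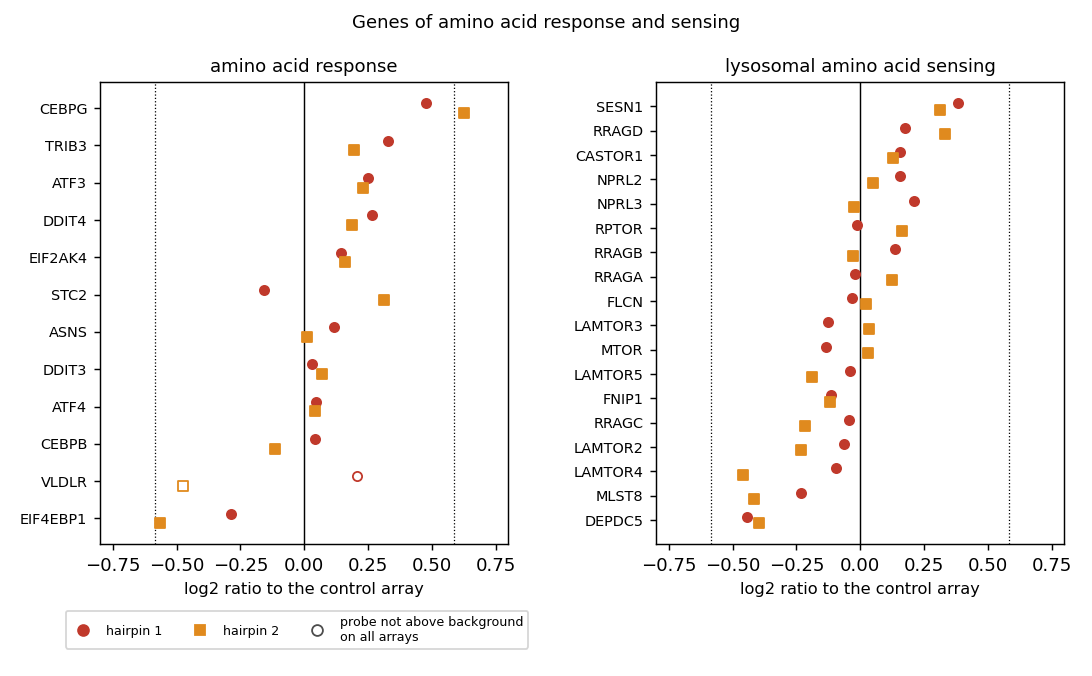
Log2 ratios to the control for tested genes of the amino acid response (left) and of lysosomal amino acid sensing (right), hairpin 1 as circles and hairpin 2 as squares, sorted by mean, with dotted lines at 1.5-fold. CEBPG lies highest at 0.48 and 0.63, and no gene passes 1.5-fold with both hairpins.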

How the data were processed

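RNA of 3 samples was measured on 1-colour Illumina arrays. The authors deposited a bead-averaged intensity per probe, made with GenomeStudio per the submitters' processing notes, linear and, as the values show, without background subtraction or normalization. A deposited detection p-value per probe ranks it among negative control probes, per the file headers and values. A second deposited table of intensity values has sorted columns equal to within 0.706 and was inferred to be quantile normalized by the authors.

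Here values were background-corrected and quantile normalized with neqc (offset 16, log2 scale) of limma 3.58.1 in R 4.3.3. neqc estimated the background from the detection p-values, since no control probes were used here. The offset makes ratios of dim genes smaller than the true ones. A probe entered if its detection p was under 0.01 on any array, and the brightest such probe stood for each gene. Hairpins (2 arrays) were compared with control (1 array) by lmFit and eBayes with an intensity trend, adjusted over 10692 genes by Benjamini-Hochberg at 0.05. The fit has 1 residual degree of freedom plus a median of 7.34 borrowed ones, and assumes that the lone control varies like the hairpins. The script was tested on simulated data. A probe not above background on an array has no measured level there, and its fitted ratio depends on the background correction, so no fold is claimed from it. The number of arrays limits the precision.

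Members and lists were chosen with earlier results of these data known. The naming rule took PARP1, the 6 highest and 6 lowest members by the smaller ratio of the same sign, SLC3A2, SLC7A5, SLC1A5, SLC38A2, SLC7A1 and SLC43A1, the 3 members furthest apart each way, other members above background with their values, and up to 4 genes per other list. All 62 gene IDs were found in RefSeq's table. Alternatives were other background corrections, normalizations, filters, probe summaries, variance priors and fold thresholds, the deposited normalized values and each hairpin alone. The SLC7 gene left out is not reported here.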

Additional observations from a re-analysis of the deposited data

How the results depend on the processing

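In each setting tried, 0 members passed the limma test, and 0 were at least 1.5-fold from the control with both hairpins, or apart between the hairpins, also at 2-fold. With 1 hairpin alone the count past 1.5-fold from the control was 0 to 4 members and 335 to 382 genes. The median log2 change of the members stayed between 0.03 and 0.13 in the settings that filtered dim probes, and was −0.030 with no filter, where all 62 members were counted. With hairpin 2 or hairpin 1 alone it was 0.08 or −0.02. With median scaling SLC6A10P and SLC7A6OS changed sign, to 0.015 and 0.041, and the median of all genes shifted to 0.06. The members higher with both hairpins, lower with both or mixed numbered 13, 7 and 10 with median scaling, 11, 9 and 10 with the mean of probes, and 22, 22 and 18 with no filter, against 13, 10 and 7 in the main processing. The other members kept the sign of their mean change in the settings run on both hairpins. limma called 3 genes with median scaling and 1 with the mean of probes, PARP1 among them both times, and 0 in the main processing (375 at an unadjusted p under 0.05). The 104 genes at least 1.5-fold from the control with both hairpins became 2 without background correction, 11 with an offset of 50, 2 on the deposited normalized values, 21 with detection on all arrays, 157 with a detection p under 0.05, 160 with no filter and 9 at 2-fold. The 378 genes at least 1.5-fold apart between the hairpins became 12, 75, 8, 147, 581, 620 and 47 in the same order. The filters and the higher threshold change by construction how many genes can be counted, and a larger offset makes ratios of dim genes smaller. The cause of the other shifts was not tested. No paired analysis was possible because the control has 1 array and its replicate number pairs no samples. Members near the detection threshold are those the signal over background limits most.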

Other observations

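Enzymes that use the imported amino acids were close to the control. Of 12 genes of amino acid catabolism on the array, 10 were tested, 3 were higher with both hairpins and 4 lower, close to the 33.8% and 31.4% of all genes, and the median log2 change was −0.02. ASS1 and ASL, which make arginine from citrulline and aspartate, had log2 ratios of −0.27 and −0.24 with hairpin 1 and −0.21 and −0.23 with hairpin 2. The ASL probe was dim, with intensities before normalization of 180.4 with hairpin 1 and 196.1 with hairpin 2, against 191.9 in the control. The arginase ARG2 had 0.40 with hairpin 1 and 0.08 with hairpin 2, and ODC1, which starts polyamine synthesis from ornithine, had −0.10 and −0.08. None passed the limma test (lowest adjusted p = 0.994).

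Of 12 amino acid and peptide carriers of other SLC families, 4 were tested. The lysosomal cystine carrier CTNS had log2 ratios of 0.07 with hairpin 1 and 0.09 with hairpin 2. In the same order the peptide and histidine carrier SLC15A4 had −0.13 and −0.05, and the lysosomal cationic carrier SLC66A1 had 0.05 and 0.34. The SLC66A1 probe was dim, with intensities before normalization of 179.6 with hairpin 1 and 208.6 with hairpin 2, against 179.5 in the control. Among the accessory partners, 4 of 5 on the array were tested. ARL6IP5, a binding partner of the glutamate carrier SLC1A1, had 0.22 with hairpin 1 and 0.23 with hairpin 2, and the transporter chaperone BSG had −0.07 and −0.16.

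The pseudogene SLC7A5P2, a partial copy of SLC7A5, was read by 3 probes that differed. Probe ILMN_2234515 had intensities of 21284 with hairpin 1 and 22760 with hairpin 2, against 22755 in the control, while the other 2 probes were not above background on any array. Which transcript the bright probe reads was not tested, and its values are uncertain for this gene.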
